A study of Mus musculus with 20 samples.

Results

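The genes described here are the 10 members of the Myc, Max and Mxd network, chosen by gene name out of the 25246 genes listed in the count tables of thymic precursors of intraepithelial lymphocytes (IELPs). They are Myc, Mycn and Mycl (the activating proteins), Max (their common partner), and 6 genes whose products compete with Myc for Max: Mxd1, Mxd3, Mxd4, Mxi1, Mnt and Mga, called the antagonists below. The cells were sorted thymocytes of 3 genotypes. For these sorts the study's captions speak of a mouse and its text of mice, and the labels of genotype and age give no number. Each genotype is therefore treated here as 1 mouse. The first was a TBGR mouse of 4 weeks, which carries a ZsGreen reporter of T-bet. The second was a TBGR C-myc fl/fl mouse of 2 weeks, whose Myc alleles are flanked by loxP sites but intact. The third was a TBGR C-myc Δ/ΔCd4 mouse of 2 weeks, in which Cre driven by Cd4 deletes Myc from the stage at which a thymocyte has switched on Cd4. Thymocytes bearing CD4 or CD8 were depleted with antibodies and beads, and the study defined IELPs as cells with an αβ T cell receptor but without CD4 or CD8αβ. Single cells were then sorted by CD122, a receptor chain for IL-15, and by the T-bet reporter into 4 populations: cells without either (CD122-T-bet-), cells with CD122 alone (CD122+T-bet-), and CD122+ cells at an intermediate (T-bet int) or a high (T-bet high) level of the reporter. CEL-Seq2 libraries of 96 cells each were made (8 TBGR, 8 C-myc fl/fl and 4 C-myc Δ/ΔCd4 libraries, the last from both T-bet- populations only). With each genotype treated as 1 mouse, the genotype, the mouse and, against TBGR, the age cannot be told apart, and no value below is a test of a condition. A TBGR or C-myc Δ/ΔCd4 library held cells of 1 population, so library and population cannot be told apart there, whereas each C-myc fl/fl library held 2 populations.

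Myc binds DNA only as a pair with Max, at the E-box CACGTG, and there recruits acetylating complexes and raises transcription of genes for ribosomes, metabolism and division. Proteins of the Mxd family, Mxi1 and Mnt pair with the same Max, sit on the same E-box and bring the Sin3 corepressor with its histone deacetylases, while Mga pairs with Max within a Polycomb complex. In T cells, Myc is induced by the T cell receptor and by cytokines and is needed for the growth and division that follow, and Mxd proteins are best known from cells that leave the cycle.

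The promoters of 3 antagonists on which the results turn are shown first, since the E-box is the sequence that the network's own proteins bind. Each is the 300 bases from 250 before to 50 after the start of the gene in RefSeq for the build GRCm38.p6, read 5′ to 3′ on the gene's strand, with the E-box CACGTG in capitals where it occurs. The Mxd4 promoter (chr5:34187661-34187960, minus strand) held an E-box 219 bases upstream of the start, the Mnt promoter (chr11:74830674-74830973, plus strand) held one 123 bases upstream, and the Mxd3 promoter (chr13:55329682-55329981, minus strand) held none.
Mxd4: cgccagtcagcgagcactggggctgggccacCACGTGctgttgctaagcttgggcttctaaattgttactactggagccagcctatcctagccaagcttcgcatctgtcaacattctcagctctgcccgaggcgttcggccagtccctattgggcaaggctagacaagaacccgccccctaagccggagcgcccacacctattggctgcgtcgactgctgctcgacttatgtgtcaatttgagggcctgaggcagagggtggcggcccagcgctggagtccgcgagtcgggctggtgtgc
Mnt: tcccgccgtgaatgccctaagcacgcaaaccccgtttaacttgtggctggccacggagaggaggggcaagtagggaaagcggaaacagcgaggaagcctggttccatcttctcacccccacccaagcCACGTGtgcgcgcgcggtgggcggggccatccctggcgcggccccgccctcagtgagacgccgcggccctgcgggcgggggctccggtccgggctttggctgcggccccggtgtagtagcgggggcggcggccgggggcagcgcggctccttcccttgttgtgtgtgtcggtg
Mxd3: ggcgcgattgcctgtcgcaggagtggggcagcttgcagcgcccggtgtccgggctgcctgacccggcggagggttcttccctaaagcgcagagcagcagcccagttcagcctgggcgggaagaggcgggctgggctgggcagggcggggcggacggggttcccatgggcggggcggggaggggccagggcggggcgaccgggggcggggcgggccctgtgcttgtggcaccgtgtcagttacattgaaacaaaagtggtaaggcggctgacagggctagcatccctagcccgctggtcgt

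The RefSeq table held promoters of 9 of the 10 members, 11 promoters in all, since Mxi1 has 3 starts in it, and Myc was not among them. The E-box was present in the promoters of 3 members, Max, Mnt and Mxd4, and in 2349 of the 32851 promoters of the table (7.15%). CACGTG reads the same on both strands, so 1 search covered both. These letters describe the sequence and are not evidence that a factor sat there.

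Of 1920 sorted cells, 1413 held at least 2000 transcripts and were used. They gave 9046408 transcripts in 28 combinations of library and population, with 22 to 94 cells and 94268 to 775264 transcripts each. The level of a gene is given in CPM (transcripts per 1000000 of the summed cells), a difference as the log2 ratio of such levels, and intervals are exact 95% counting intervals, which cover counting error only. A gene was called between groups where the log2 ratio lay beyond 1, at least 20 transcripts were counted over both groups, and the libraries of the groups did not overlap (within C-myc fl/fl libraries that held both populations, where the direction was the same in all 4). The sort was visible in the RNA: Il2rb, which encodes CD122, was at 7.14 CPM in the TBGR CD122-T-bet- population and at 269 in the CD122+T-bet- one, and Tbx21, which encodes T-bet, was at 0, 1.36, 48.0 and 165 from CD122-T-bet- to T-bet high cells. The study's paper calls the sorted cells NK1.1- and its design text at GEO calls them NK1.1+. Klrb1c, which encodes NK1.1, was at 563 CPM in TBGR T-bet high cells and at 39.5 in int cells, and at 81.5 in C-myc fl/fl T-bet high cells. These are RNA levels, whereas the sort used the surface protein. The paper itself reports Klrb1c RNA in T-bet+ cells of its NK1.1- gate, so these values do not settle which label is right. The libraries used only 2 sets of 96 cell barcodes, each shared by 10 libraries, and barcodes without a cell held 0.535% of all transcripts.

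Over all 1413 cells, Mga (866 transcripts), Max (798) and Mxd4 (574) were the most abundant members, followed by Myc with 464. Mnt (291), Mxd1 (204), Mxi1 (195) and Mxd3 (171) were lower, Mycn gave 34 transcripts and Mycl 1. CEL-Seq2 counts 3′ ends, so these counts compare molecules between genes without a correction for length. The antagonists together exceeded Myc in every population of every genotype. The GENCODE annotation of GRCm38 places Myc on chromosome 15, Mycn and Max on 12, Mycl on 4, Mga on 2, Mxd4 on 5, Mxd1 on 6, Mnt on 11, Mxd3 on 13 and Mxi1 on 19.

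In the TBGR mouse, Myc was higher from the CD122+T-bet- stage on. Its level in the pair of CD122-T-bet- libraries was 12.4 and 14.1 CPM, in the CD122+T-bet- libraries 46.4 and 62.0, in the T-bet int libraries 69.7 and 66.4, and in the T-bet high libraries 50.9 and 29.98. The CD122-T-bet- libraries thus lay below all other TBGR libraries, and the int libraries lay above all others. For the gain of CD122 by T-bet- cells the ratio on the log2 scale was 1.97 (interval 1.16 to 2.99, 13 transcripts before and 79 after), which was called. The steps to int (log2 ratio 0.34, interval -0.11 to 0.80) and from int to high (-0.62, interval -1.27 to -0.03) were not called, although libraries did not overlap in either; without T-bet high library 1 the last step was -1.09 and called. As a share of cells, with each cell thinned to 2000 transcripts, Myc was found in 4.02% of CD122-T-bet- cells, 9.14% of CD122+T-bet- cells, 11.1% of int cells and 4.76% of high cells; unthinned, these were 6.90%, 28.5%, 32.7% and 15.0%. The sums do not tell apart fewer cells with a gene from less of it in each cell. Barcodes without a cell held 2 Myc transcripts in all.

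Mycn, the paralogue used by many immature cells, was nearly confined to 1 TBGR population and there to 1 library. CD122+T-bet- cells gave 14 transcripts, 13 of them in library 1, spread over 9 cells, and 1 in library 2. No Mycn transcript was found in TBGR CD122-T-bet- or T-bet high cells, for which the exact intervals reach up to 3.76 and 5.23 CPM, and 1 was found in int cells. With a floor of 3 transcripts over the group in place of 0, Mycn was 3.11-fold higher in CD122+T-bet- than in CD122-T-bet- cells. The exact interval of that log2 ratio starts at 1.15, but the difference rests on library 1. Mycl, with 1 transcript in 1 C-myc fl/fl cell, was not detectable at this depth elsewhere.

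**Figure D1:**
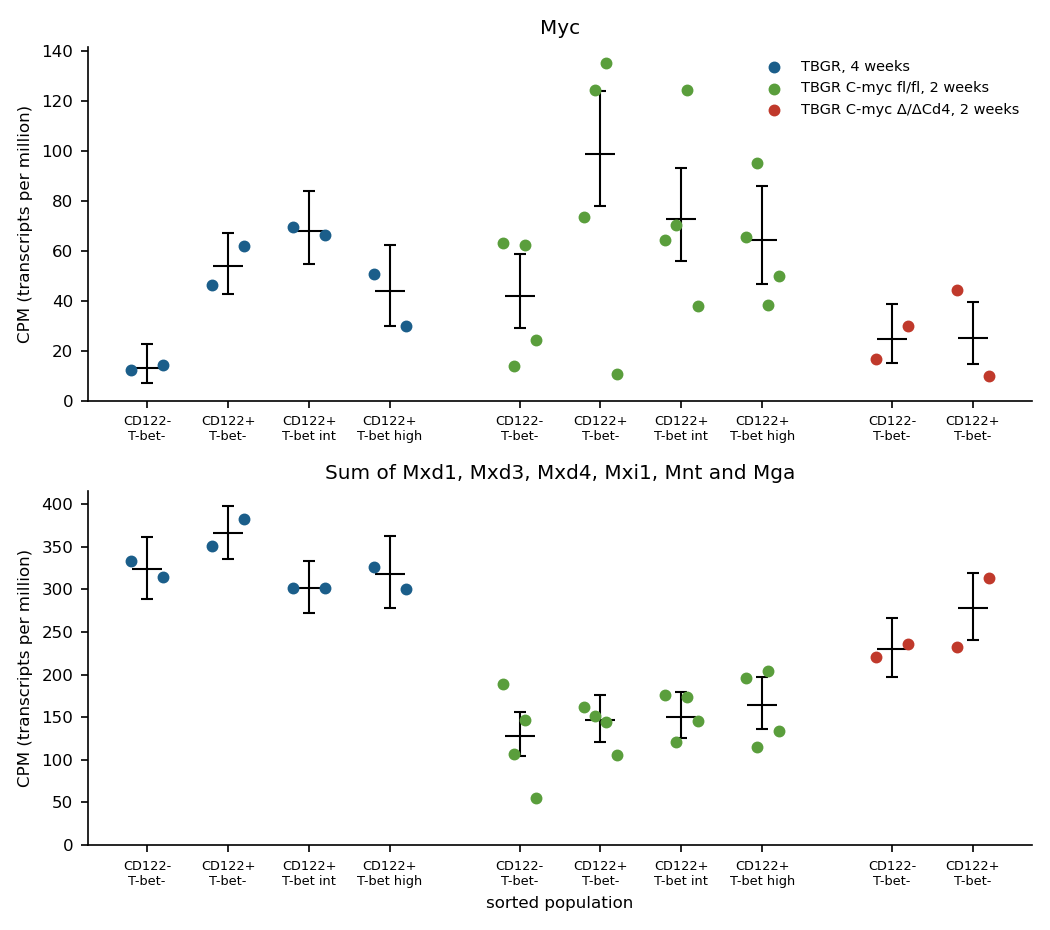
Level in CPM of Myc (top) and of the 6 antagonists together (bottom) by sorted population and genotype; each coloured point is 1 library and the black bar is the pooled level with its exact 95% Poisson interval. The TBGR Myc level is 13.3 in CD122-T-bet- and 53.8 in CD122+T-bet- libraries pooled, while the TBGR antagonist sum stays between 302 and 366.

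Set against this, the summed antagonists were nearly level in the TBGR mouse. The sum was 333 and 314 CPM in the CD122-T-bet- libraries, 351 and 382 in CD122+T-bet-, 302 and 302 in int, and 327 and 300 in high libraries. The largest of the 3 steps was a log2 ratio of -0.28 (interval -0.47 to -0.09) from CD122+T-bet- to int cells, where libraries did not overlap but the size stayed under the limit for a call. For each 100 antagonist transcripts there were 4.10 Myc transcripts in CD122-T-bet- cells (interval 2.16 to 7.11, libraries 3.73 and 4.49), 14.7 in CD122+T-bet- cells (13.2 and 16.2), 22.6 in int cells (23.1 and 21.99) and 13.8 in high cells (15.6 and 10). The int libraries held the highest values and the CD122-T-bet- libraries the lowest, and the CD122+T-bet- and high libraries overlapped.

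**Figure D2:**
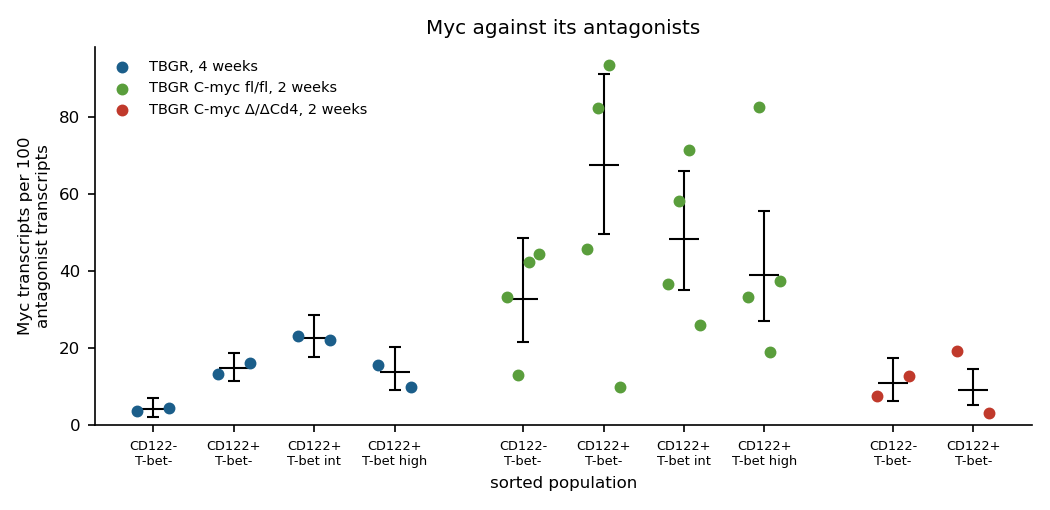
Myc transcripts per 100 antagonist transcripts by sorted population and genotype; points are libraries and black bars are the pooled values with exact 95% counting intervals. TBGR values run from 4.10 to 22.6, C-myc fl/fl values from 32.7 to 67.6 and C-myc Δ/ΔCd4 values are 10.8 and 9.05.

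Behind the level sum, the TBGR antagonists exchanged places, and the exchange was centred on the int stage. Mxd4, known from resting and differentiated cells, was at 143 and 109 CPM in CD122-T-bet- libraries and at 115 and 146 in CD122+T-bet- libraries. It was at 43.9 and 47.4 in int libraries and at 157 and 98.5 in high libraries. Every int library lay below every other TBGR library. The log2 ratio was -1.49 (interval -1.95 to -1.07) from CD122+T-bet- to int and 1.59 (1.11 to 2.08) from int to high, and both were called. Mxd3, the family member described in dividing cells around S phase, moved the other way. No Mxd3 transcript was found in either CD122-T-bet- library. It was at 12.9 and 10.1 CPM in CD122+T-bet- libraries, 48.5 and 42.7 in int libraries and 0 and 12.9 in high libraries. Here the int libraries lay above all others. The log2 ratio was 1.95 (interval 1.18 to 2.85) into the int stage and -3.21 (-5.74 to -1.81) out of it, both called; the 3 transcripts left in high cells came from a single cell. With a floor of 3 transcripts in place of 0, Mxd3 was 3.78-fold higher in CD122+T-bet- than in CD122-T-bet- cells. The exact interval of that log2 ratio starts at 1.46. Mxd4 made up 38.8% of antagonist transcripts in CD122-T-bet- cells (exact interval 33.4% to 44.4%) and 15.1% in int cells (11.7% to 19.1%), and Mxd3 0% (up to 1.16%) and 15.1%.

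The 13 cell cycle genes counted beside them moved with Mxd3, and their part in the result was tested only by leaving out cells. Their summed level was 385 CPM in TBGR CD122-T-bet-, 1712 in CD122+T-bet-, 2824 in int and 614 in high cells. Without the cells that had more than 0.1% cycle transcripts, the step into the int stage was 2 transcripts before and 4 after for Mxd3 and -0.94 for Mxd4, neither called, while from int to high the Mxd4 call was kept and the Mxd3 call was lost (4 transcripts before and 0 after). When every cell was thinned to 2000 transcripts in a single random draw, Mxd3 was at 8 transcripts before and 7 after the step into the int stage. The log2 ratio was then -0.06 with a wide interval (-1.77 to 1.59). Giving each cell the same weight without thinning left a ratio of 1.59. Out of the int stage thinning left a Mxd3 ratio of -2.10 on 7 transcripts before and 1 after, too few for a call.

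The other TBGR members differed less. Mnt, the broadly expressed antagonist, was at 39.3 and 20.1 CPM in the CD122-T-bet- libraries and 49.0 and 60.5 in the CD122+T-bet- libraries (log2 ratio 0.86, not called); without CD122+T-bet- library 1 the ratio was 1.03 and without CD122-T-bet- library 1 it was 1.37, both called. Mxd1, described in cells that are being activated or differentiating, was at 16.5 and 16.1 in CD122-T-bet-, 25.8 and 27.4 in CD122+T-bet-, 48.5 and 26.9 in int and 38.2 and 51.4 in high libraries. None of its steps passed the limit, but without the cells above 0.1% cycle transcripts the first was 1.53 and called. Mxi1 differed more between the pair of CD122-T-bet- libraries, at 14.5 and 68.5, than between most populations. Its first step was called lower without the first of them (-1.04) and higher without the second (1.12), and its second step was called lower without int library 2 (-1.23). Mga was between 72.8 and 120 CPM in all 8 TBGR libraries and Max between 72.1 and 129, and neither was called in any TBGR step. Mnt at the third step (-0.71) was called lower without high library 2 (-1.09).

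Counted together, 1 of 7 members was called higher and 0 lower at the first TBGR step, against 14.3% and 3.92% of all genes. At the second, 1 of 8 was called higher (3.49% of all genes) and 1 lower (6.94%). At the third, 1 of 8 was called higher (7.93%) and 1 lower (11.7%). The members not counted had fewer than 20 transcripts. The median gene itself was shifted by 0.26 at the first step and by less than 0.1 at the others; relative to it the Myc ratio was 1.71 and that of the antagonist sum turned from 0.18 to -0.09. After subtraction of the median, 61.4% of all calls of the first step were higher, against 78.5% before.

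**Figure D3:**
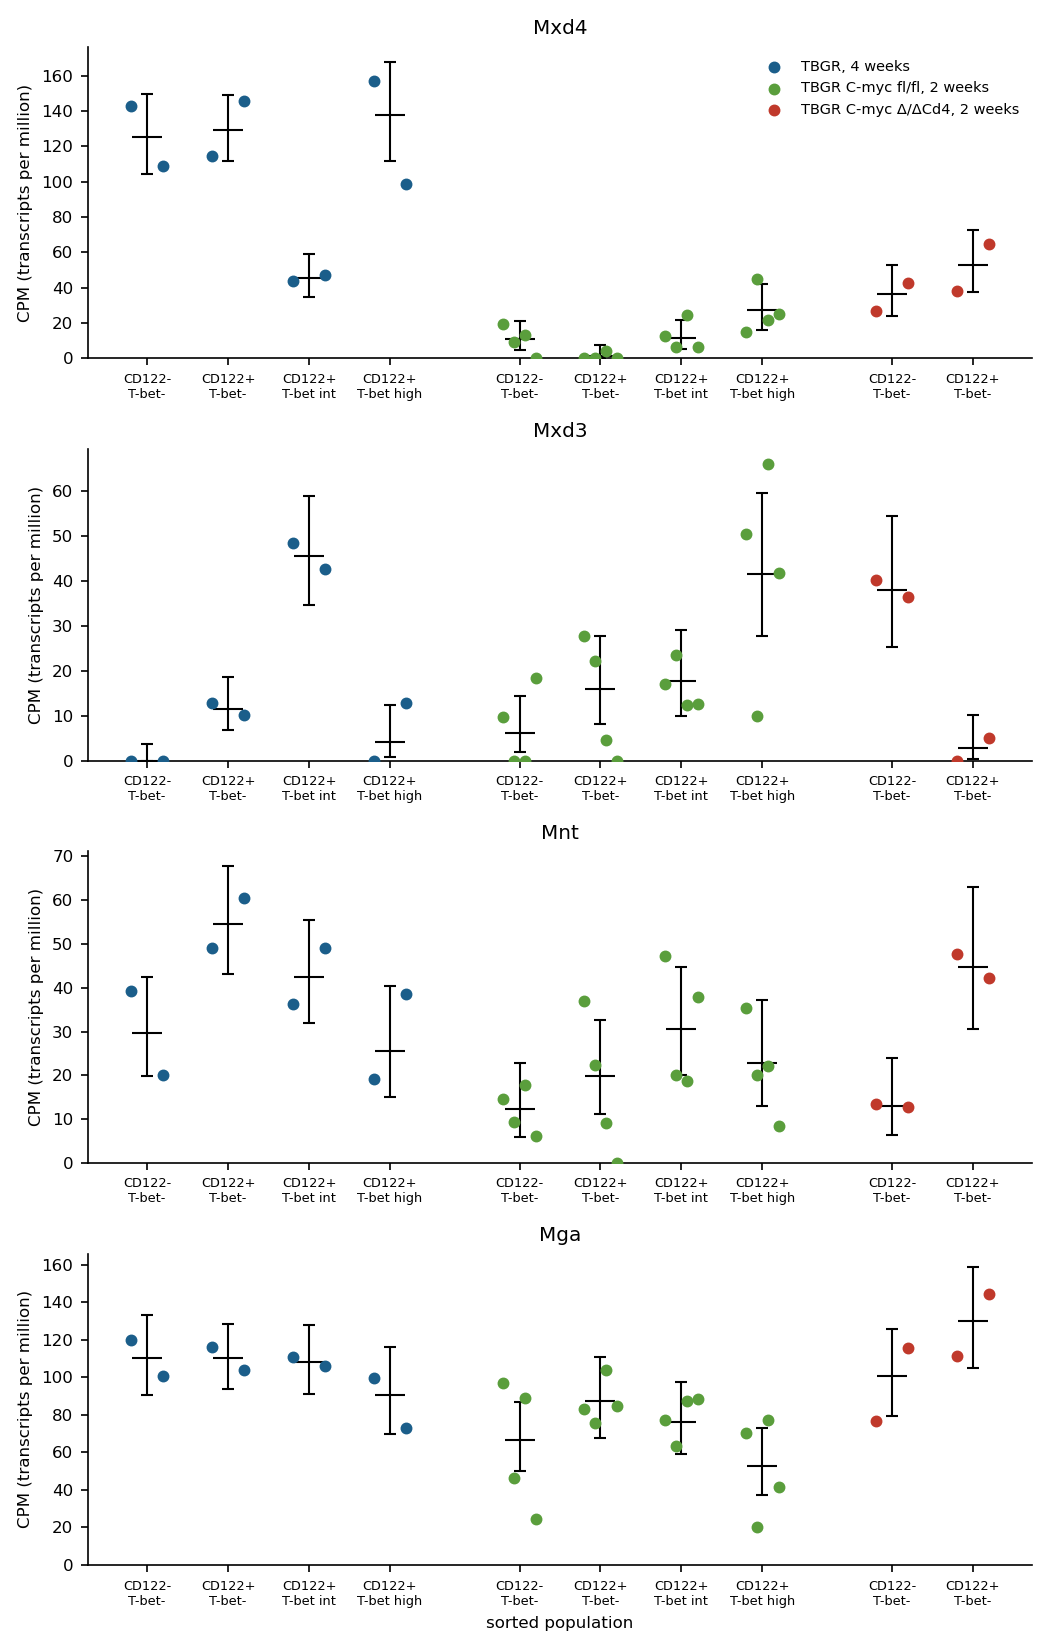
Level in CPM of Mxd4, Mxd3, Mnt and Mga by sorted population and genotype; points are libraries and black bars are pooled levels with exact 95% Poisson intervals. In TBGR cells Mxd4 is lowest (45.7) and Mxd3 highest (45.7) in the int population, and in C-myc fl/fl CD122+T-bet- cells Mxd4 is at 1.32.

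The C-myc fl/fl mouse, which was 2 weeks younger than the TBGR mouse, had more Myc per antagonist and little Mxd4, and age and mouse cannot be told apart in this. Myc was at 63.0, 13.95, 62.3 and 24.4 CPM in the 4 CD122-T-bet- libraries and at 73.8, 125, 135 and 10.6 in the CD122+T-bet- cells of the same libraries. It was thus higher in 3 of 4 libraries and lower in library 4, where 1 transcript was counted in 22 cells. The log2 ratio over all 4 was 1.23 (interval 0.64 to 1.87), and was not called because of library 4; without that library it was 1.25 and called. With all libraries it was called when cells were thinned (1.68), weighted equally (1.82) or taken from 1000 transcripts on (1.35), without the 19 of 120 CD122-T-bet- and 1 of 122 CD122+T-bet- cells with 2 or more Trdc transcripts (1.75), and without the cells above 0.1% cycle transcripts (3.06). Int cells were at 64.3, 70.3, 124 and 38.0 and high cells at 65.5, 95.2, 38.5 and 50.1, with overlap throughout. Max was higher in CD122+T-bet- than in CD122-T-bet- cells in all 4 libraries (92.2, 111, 149 and 106 against 67.9, 55.8, 71.2 and 36.6), with a log2 ratio of 0.96 (0.45 to 1.51), just under the limit; without library 1 it was 1.15 and called. It was also called when cells were thinned (1.21) or weighted equally (1.43), with ribosomal protein genes left out of the total (1.02), without the Trdc cells (1.20) and without the cycle cells (1.89). Mxi1 (-0.94) was called lower without library 4 (-1.24). The median gene was shifted by 0.48 in this comparison, relative to which Myc was at 0.74, Max at 0.48 and Mga turned from 0.38 to -0.10.

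Mxd4 in C-myc fl/fl cells was near the limit of counting: 9 transcripts in CD122-T-bet-, 1 in CD122+T-bet-, 10 in int and 19 in high cells. The highest C-myc fl/fl library was at 45.1 CPM, about the level of the lowest TBGR library at 43.9. Mxd3 was between 0 and 27.7 CPM in both T-bet- populations, between 12.4 and 23.4 in int cells, and at 50.4, 10.02, 66.0 and 41.7 in high cells. From int to high its ratio was 1.21 (0.29 to 2.24), higher in 3 of 4 libraries and lower in the second, without which it was 1.84 and called. Mxd4 had a ratio of 1.18 at this step (0.03 to 2.48) and was called without the third library (1.67). Mxd3 thus did not fall at this step as it did in the TBGR mouse, a difference between the mice that was not tested, and the cycle genes were still at 2257 CPM in high cells against 2925 in int cells. Mga was the largest antagonist in all 4 populations, with 32.2% to 59.5% of antagonist transcripts.

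No C-myc fl/fl member was called with all cells and libraries summed, although Myc and Max at the first step were called under the alternatives given above. At the first step, 0 of 5 members were called in either direction, against 11.6% of all genes called higher and 2.22% lower. At the second, again 0 of 5 were called, against 0.562% and 0.506%. At the third, 0 of 7 were called, against 2.24% and 4.72%. Subtracting the median gene (0.48 at the first step and -0.18 at the third) moved the higher share of all calls from 83.9% to 50.5% and from 32.2% to 49.3%, and turned the antagonist sum of the first step from 0.19 to -0.29 and the Myc ratio of the third from -0.18 to 0.01. For each 100 antagonist transcripts there were 32.7 Myc transcripts in CD122-T-bet-, 67.6 in CD122+T-bet-, 48.4 in int and 39.1 in high cells, and the CD122+T-bet- libraries spread from 10 to 93.8.

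Myc was still counted in the C-myc Δ/ΔCd4 mouse. CEL-Seq2 reads come from the 3′ end of a transcript, and the extent of the deleted part is not given in the sources used here. A read outside that part would be counted from a deleted allele, so the Myc level checks neither the genotype nor the deletion. In CD122+T-bet- cells Myc was at 44.5 and 9.96 CPM in the pair of C-myc Δ/ΔCd4 libraries, against 73.8, 125, 135 and 10.6 in the C-myc fl/fl libraries. C-myc fl/fl library 4 lay inside the range of the C-myc Δ/ΔCd4 libraries. The log2 ratio was -1.95 (interval -2.81 to -1.22, 18 against 75 transcripts) and was not called for that reason; without C-myc fl/fl library 4 it was -2.12 and called, without C-myc Δ/ΔCd4 library 1 it was -3.15 and called, and without C-myc Δ/ΔCd4 library 2 it was -1.11 and not called. In CD122-T-bet- cells Myc was at 16.7 and 30.01 against 63.0, 13.95, 62.3 and 24.4, with overlap and a log2 ratio of -0.74 (-1.65 to 0.09).

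The antagonists differed in the opposite direction. In CD122+T-bet- cells their sum was at 232 and 314 CPM in C-myc Δ/ΔCd4 libraries and at 161, 151, 144 and 106 in C-myc fl/fl libraries, a 1.89-fold level with no overlap (log2 ratio 0.92, interval 0.58 to 1.27). Mxd4 stood out: 38.1 and 64.7 CPM against 0, 0, 4.51 and 0, that is 38 transcripts against 1 (log2 ratio 4.76, interval 2.76 to 10.7). Its 38 transcripts came from 31 of 137 cells. The call was lost without C-myc Δ/ΔCd4 library 2 (4.33) and with thinned cells (5.12, 19 against 0 transcripts), where fewer than 20 transcripts were left. Mnt was at 47.6 and 42.3 against 36.9, 22.3, 9.02 and 0 (log2 ratio 1.15, interval 0.25 to 2.16), above every C-myc fl/fl library. It passed by a small margin, since relative to the median gene, shifted by 0.18, it was 0.97, and it was not called without C-myc fl/fl library 3 (0.85) or 4 (0.96) or with cells from 1000 transcripts on (0.88). Mga (0.57), Mxi1 (0.88) and Mxd1 (1.20) also had positive ratios without being called, the first 2 with libraries that did not overlap, and Max had a ratio of -0.35. Mxd1 was called without C-myc fl/fl library 2 (1.97), and both Mxd1 (1.47) and Mxi1 (1.19) without C-myc Δ/ΔCd4 library 1. Mxd3 differed in the same direction as Myc, with 2 against 12 transcripts (log2 ratio -2.24, interval -5.71 to -0.34), but was under the minimum. In this comparison 2 of 7 members were called higher and 0 lower, against 13.5% and 6.13% of all genes. The C-myc fl/fl cells were the low group for Mxd4, Mnt and the sum, at 1.32, 19.8 and 147 CPM pooled. CD122+T-bet- cells of the wild-type TBGR mouse were at 129, 54.5 and 366, above the C-myc Δ/ΔCd4 levels of 53.0, 44.7 and 278. Mga went the other way, at 110 in TBGR and 130 in C-myc Δ/ΔCd4 cells. Age and mouse cannot be told apart from genotype in this.

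**Figure D4:**
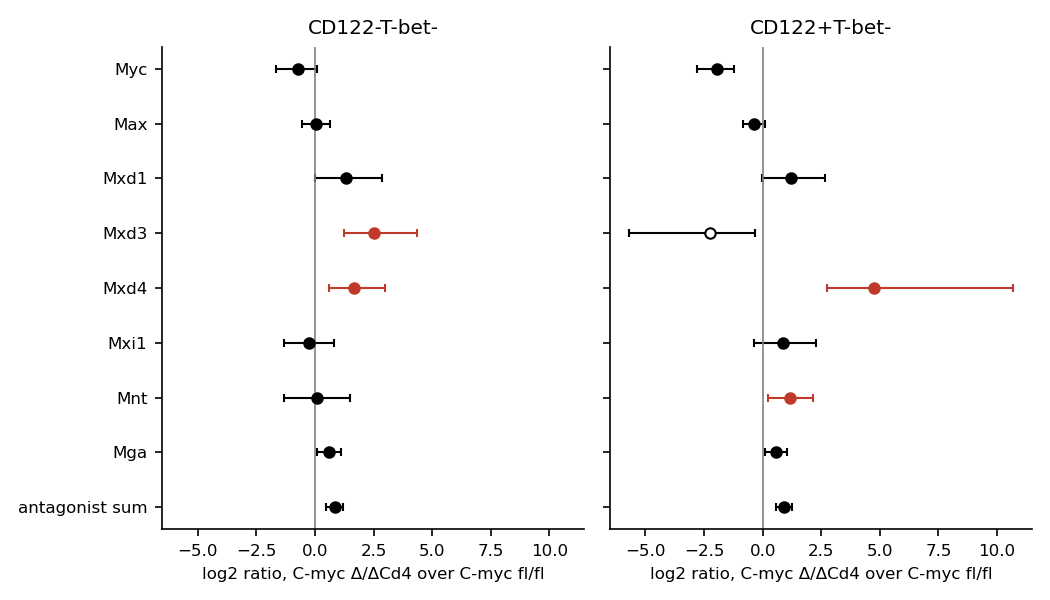
Log2 ratio of C-myc Δ/ΔCd4 over C-myc fl/fl for 8 members and the antagonist sum in CD122-T-bet- (left) and CD122+T-bet- cells (right), with exact 95% counting intervals; red points were called, and the open point had fewer than 20 transcripts. Mxd4 is at 1.67 and 4.76, the antagonist sum at 0.84 and 0.92, and Myc at -0.74 and -1.95.

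In CD122-T-bet- cells the antagonist sum was at 221 and 236 against 189, 107, 147 and 54.9 CPM, a 1.79-fold level with no overlap (log2 ratio 0.84, interval 0.48 to 1.20). Mxd4 was at 26.8 and 42.9 against 19.4, 9.30, 13.3 and 0 (log2 ratio 1.67, interval 0.59 to 2.99). Mxd3 was at 40.1 and 36.4 against 9.70, 0, 0 and 18.3 (2.50, interval 1.23 to 4.34). Both were called, with every C-myc Δ/ΔCd4 library above every C-myc fl/fl library. Without C-myc Δ/ΔCd4 library 2 both fell under the minimum of 20 transcripts (2.62 and 1.28), and Mxd1 was called (2.39, against 1.30 with both). Mnt, at 13.4 and 12.9 against 14.5, 9.30, 17.8 and 6.10, lay within the C-myc fl/fl range here. Of 8 members, 2 were called higher and 0 lower, against 12.9% and 1% of all genes. The median gene was shifted by 0.45, relative to which Mxd3 was 2.06, Mxd4 1.22, the antagonist sum 0.39, and the ratios of Max (0.05) and Mnt (0.08) turned negative; after its subtraction 74.8% of all calls were higher, against 92.8% before. Mycn gave 9 transcripts in 4 C-myc Δ/ΔCd4 cells and none in C-myc fl/fl cells, 3.17-fold higher with the floor of 3 transcripts in place of 0. The interval of that log2 ratio starts at 1.06, and Mycn was under the minimum of 20 transcripts. In the TBGR CD122-T-bet- cells Mxd4 was at 125 CPM and the antagonist sum at 323, above the pooled C-myc Δ/ΔCd4 levels of 36.6 and 230. Mxd3 went the other way, at 0 in TBGR and 37.9 in C-myc Δ/ΔCd4 cells.

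Within the C-myc Δ/ΔCd4 mouse, the Myc libraries of CD122-T-bet- cells lay inside the range of the CD122+T-bet- libraries: the log2 ratio was 0.02 (interval -0.997 to 1.03), and without CD122+T-bet- library 1 it was -1.19 and called. Mnt was higher in CD122+T-bet- cells (47.6 and 42.3 against 13.4 and 12.9 CPM, log2 ratio 1.73, interval 0.71 to 2.96) and Mxd3 lower (0 and 4.98 against 40.1 and 36.4, -3.47, interval -6.88 to -1.78). Both were called, and Mxd3 fell under the minimum of 20 transcripts without either CD122-T-bet- library (-3.43 and -3.58). Mxd1 (0.18) was called higher without CD122-T-bet- library 1 (1.78). Of 8 members, 1 was called higher and 1 lower, against 13.4% and 7.84% of all genes. Max was higher without overlap (98.5 and 84.6 against 56.9 and 64.3) with a ratio of 0.56, and the antagonist sum had a ratio of 0.27 with overlap. The median gene was shifted by 0.13, relative to which the Myc ratio was -0.11.

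Some markers of other cells and of division moved with these differences, and beyond the cells left out below their part in the result was not tested. The depletion of CD4+ and CD8+ cells and the gate on the αβ receptor should remove γδ, B and double-positive cells. Trdc, the constant gene of the γδ receptor, was at 212 CPM in C-myc Δ/ΔCd4 and 9.24 in C-myc fl/fl CD122+T-bet- cells, and at 346 and 139 in CD122-T-bet- cells. The summed level of the 4 γδ markers, of which Tcrg-C2 was at 0, was 724 to 752 in C-myc Δ/ΔCd4 and 131 to 567 in C-myc fl/fl CD122+T-bet- libraries, and 733 to 943 against 173 to 1013 in CD122-T-bet- libraries. Tcrg-C1 made up most of the sum in CD122+T-bet- cells, at 491 and 276 CPM. It was highest, at 667, in TBGR T-bet high cells, where Trdc and Sox13 were at 0, so the sum does not measure γδ cells alone. Without the cells that had 2 or more Trdc transcripts, the Mxd4 ratio was 4.85 in CD122+T-bet- and 2.15 in CD122-T-bet- cells, all calls in both comparisons were kept, and Mxd1 (1.37) and Mxi1 (1.04) were called in addition in CD122+T-bet- cells. Those cells held most of the Myc transcripts of the C-myc Δ/ΔCd4 CD122-T-bet- population: 5 of 19 transcripts were left without 37 of 128 cells, and Myc was then called higher in CD122+T-bet- than in CD122-T-bet- cells of that mouse (1.22). The 3 B cell markers were at 182 CPM in C-myc Δ/ΔCd4 CD122+T-bet- library 2 and at 0 in library 1, and 1 cell of the population had 2 or more of their transcripts; without it the Mxd4 ratio was 4.79. The 7 markers of double-positive thymocytes summed to 97.1 to 102 CPM in C-myc Δ/ΔCd4 and 0 to 46.1 in C-myc fl/fl CD122+T-bet- libraries, where Rag2 was at 0 in both, and to 469 to 572 and 228 to 347 in CD122-T-bet- libraries. Cycle genes were at 833 CPM in C-myc Δ/ΔCd4 and 2853 in C-myc fl/fl CD122+T-bet- cells, and at 3481 and 1578 in CD122-T-bet- cells, the opposite order. Without the cells above 0.1% cycle transcripts, Mxd4 was 32 against 0 transcripts in CD122+T-bet- and 26 against 6 in CD122-T-bet- cells (2.38), both called, the antagonist sum had ratios of 1.34 and 1.10, both called, and Mxd3 had 1 against 0 and 0 against 0 transcripts.

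The members divided by the cells' share of cycle transcripts. Of all 1413 cells, 484 had more than 0.1% of their transcripts from the 13 cycle genes, and 422 lay near this limit, between 0.05% and 0.2%, so it marks a range and not a cell type. Those 484 cells held 43.6% of all transcripts but 95.9% of the Mxd3 transcripts (164 of 171), at 41.6 CPM (interval 35.5 to 48.5) against 1.37 (0.55 to 2.82) in the other cells. Mxd3 was higher above the limit in 9 of the 10 groups of genotype and population, and was not found in the tenth, TBGR CD122-T-bet- cells. Mxd4 went the other way, with 21.6% of its transcripts and 31.5 against 88.1 CPM, and was lower above the limit in 8 of 10 groups. Mga (42.5%) and Max (46.2%) followed the share of all transcripts. Mxd1 (29.9%) and Mxi1 (36.4%) lay below it and Mnt (52.2%) above it. The pooled shares also carry differences between genotypes, as most Mxd4 transcripts came from the TBGR mouse.

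Myc itself was at 70.6 CPM (interval 62.5 to 79.4) in cells above the limit and 36.4 (31.4 to 42.1) in the others, higher above it in 7 of 10 groups, and the groups differed. In TBGR CD122+T-bet- and int cells it was level, at 53.4 against 54.1 and 70.5 against 65.2 CPM. Among the CD122-T-bet- cells of both younger mice it was concentrated in cells above the limit, at 105 against 11.1 CPM in C-myc fl/fl and 52.9 against 2.35 in C-myc Δ/ΔCd4 cells, where they held 18 of 19 transcripts. In C-myc Δ/ΔCd4 CD122+T-bet- cells they held 3 of 18.

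**Figure D5:**
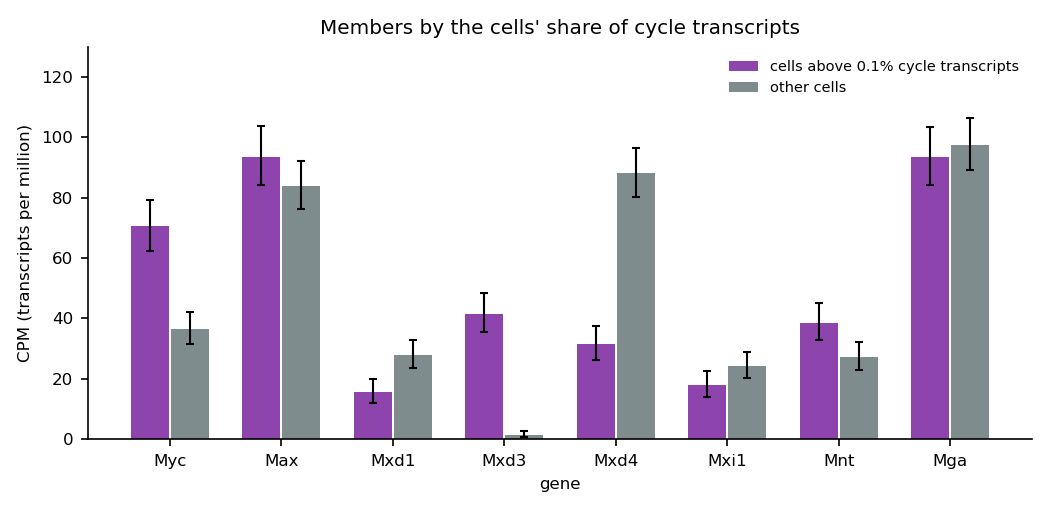
Pooled level in CPM of 8 members in the 484 cells with more than 0.1% cycle transcripts and in the other 929 cells, with exact 95% Poisson intervals as error bars. Mxd3 is at 41.6 against 1.37, Mxd4 at 31.5 against 88.1 and Myc at 70.6 against 36.4, while Max and Mga differ little.

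The genes most like the members were searched over the 28 combinations of library and population, among 4434 genes with at least 300 transcripts, as Pearson's r of log2 levels with 10 CPM added. These r are descriptions, since combinations share mice, plates and depth. Myc was most like Rpl10a (0.81) and Mrps36 (0.80), a cytosolic and a mitochondrial ribosomal protein gene, and Hprt (0.80), a purine salvage gene. Mxd4 was most like Lck (0.91), a kinase of the T cell receptor, Tnfaip3 (0.89), an inhibitor of NF-κB signalling, and Tecpr1 (0.88), and least like Tyms (-0.79), which makes thymidylate for DNA synthesis. Mga was most like Chd1 (0.87), a chromatin remodeller, Tank (0.86) and Matr3 (0.81), which binds RNA, and Max reached only 0.68 with Fam3c. With 30 CPM added instead of 10, Mir142hg (0.91) and Eif4e3 (0.90) came before Lck (0.90) for Mxd4, Rpl5 replaced Hprt for Myc, and the 3 genes for Mga were the same. Between members, Myc had an r of -0.23 with Mxd4, 0.19 with Max and -0.10 with Mga.

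The genes around the network differed most between C-myc Δ/ΔCd4 and C-myc fl/fl CD122+T-bet- cells. Of the list of 30 genes known to be induced by Myc, 27 were tested, 20 were called lower (6.13% of all genes) and 1 higher (13.5%), with a median log2 ratio of -1.55 against 0.18 for all genes. Among the strongest were Gar1, which guides ribosomal RNA modification (8.37 against 88.5 CPM, log2 ratio -3.30), Srm, which makes spermidine (9.77 against 81.9, -2.98), Slc7a5, which imports amino acids (5.58 against 33.0, -2.42) and Cad, which starts pyrimidine synthesis (11.2 against 47.5, -2.02). In CD122-T-bet- cells, 0 of 28 were called, with a median of 0.02 against 0.45. Within the C-myc Δ/ΔCd4 mouse, 14 of 27 were called lower (7.84% of all genes) and 1 higher (13.4%) in CD122+T-bet- than in CD122-T-bet- cells. In the TBGR mouse, 2 of 28 were called higher at the first step (14.3% of all genes), 0 at the second and 7 lower at the third (11.7%). In the C-myc fl/fl mouse, 3 of 28 were called higher at the first step (11.6%), 0 at the second and 2 lower at the third (4.72%). Neither count at the first steps exceeded the share of all genes, and counts this small are a description. The median log2 ratio of the list was 0.51 against 0.26 for all genes at the first TBGR step. At the first C-myc fl/fl step it was 0.57 against 0.48. The list holds Cdk4, Eif5a, Eef1b2, Ldha and Pkm, which the study named from these samples and which are therefore not independent of them.

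The genes of the Sin3 corepressor, through which Mxd proteins and Mnt act, did not move as one: of 14 tested between the genotypes in CD122+T-bet- cells, 3 were called higher (13.5% of all genes) and 1 lower (6.13%), with a median of 0.48 against 0.18. These shares of all genes also apply to the counts in CD122+T-bet- cells that follow, and 12.9% higher and 1% lower to those in CD122-T-bet- cells; counts this small are given as a description. Hdac1, a histone deacetylase, was lower in both populations (43.3 against 112 CPM, log2 ratio -1.36, and 17.0 against 61.7, -1.82), and Arid4a (1.22) and Arid4b (1.16), which help to assemble the complex, were higher in CD122+T-bet- cells. Of 11 tested cofactors of Myc, Ruvbl1 (-2.24) and Ruvbl2 (-1.04), helicases of the acetylating complexes, were called lower there and Zbtb17, the Myc partner Miz-1 in gene repression, was called higher (37.7 against 14.5, 1.34). None of 7 tested partners of Mga in its Polycomb complex was called. Among 9 tested genes of Myc protein turnover, Set, an inhibitor of the phosphatase PP2A, was called lower (-1.15), and among 10 tested in CD122-T-bet- cells Fbxw7, which marks Myc for degradation (1.17), and Aurka, which protects N-Myc from it (1.01), were called higher. Of 4 tested genes known to be repressed by Myc, Gadd45a (1.45) and the CDK inhibitor Cdkn1b (1.25) were called higher in CD122+T-bet- cells, while Cdkn2c, another CDK inhibitor, was called lower there (-3.38) and higher in CD122-T-bet- cells (2.05), the same order as the cycle genes. Of the 3 genes of the parallel Mlx arm of the network, 1 could be tested in each population and was not called.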

How the data were processed

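Single sorted thymocytes of 3 genotypes, each treated as 1 mouse, were measured by CEL-Seq2, which tags each transcript at its 3′ end with a random barcode (UMI). According to the submitters' processing notes, bcl2fastq 2.17.1.14 and BWA 0.6.2-r126 were used. The deposited tables hold estimated counts: the authors converted the number of UMIs per gene and cell to transcript numbers with the 4096 UMIs possible, so values need not be whole. All 3270251 values above 0 converted back to a whole UMI number within 1e-06. Libraries were deposited separately, without normalization by the authors, and no column of values was without a sample. Genotype came from the labels, and the population of each cell from the deposited plate layouts.

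Cells with at least 2000 transcripts, not counting mitochondrial genes or spike-ins, were kept (1413 of 1920). Rounded transcripts were summed per library and population and divided by the total, giving CPM (transcripts per 1000000). A log2 ratio has 0.5 transcripts added to each sum, and its interval is the exact conditional 95% interval. Ratios were computed for all genes, with a minimum of 20 transcripts over both groups. With each genotype treated as 1 mouse, no test of a condition was made, so no p-value is given. "Called" means a ratio beyond 2-fold with libraries that do not overlap. Members were named by a rule that takes all 10 whatever their values, and other genes of the fixed lists by the size of their ratio among those called. The members, lists and rules were chosen with earlier results of these data known. Calls and ratios were checked on simulated counts that held counting error but no spread between libraries. That check therefore says nothing on calls where libraries differ by more than counting error. Doublets were not removed, beyond the sorting of 1 cell per well. Promoter sequences came from RefSeq, build GRCm38.p6. Python 3.11.15, numpy 2.4.6, pandas 2.3.3, scipy 1.17.1 and matplotlib 3.10.9 were used. The alternatives tried were other minimums per cell and gene, scalings, weights, cells left out and each library left out.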

Additional observations from a re-analysis of the deposited data

Results flagged for a closer look

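In 3 of 40 groups of 4 C-myc fl/fl libraries a single library stood apart by a rule made for continuous values. These were Mycl (4.45 CPM) and Mxd4 (4.51) in CD122+T-bet- cells and Mycn (5.04) in T-bet high cells, each of them 1 transcript in 1 library with the other libraries at 0. Such a count always passes the rule, so these flags come from few transcripts and do not mark a deviating library.

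Some members had opposite directions in different mice for the same step, in all libraries, and these differences were not tested. At the step by which T-bet- cells gain CD122, the fitted log2 ratio of Mycn was 4.27 in the TBGR mouse (0 transcripts before and 14 after) and -0.98 in the C-myc Δ/ΔCd4 mouse (9 and 4). That of Mxd3 was 4.55 (0 and 17) and -3.47 (29 and 2). Ratios against 0 depend on the 0.5 transcripts added and are no bounds. From CD122+T-bet- to int cells the ratio of Mxd4 was -1.49 in the TBGR mouse (190 and 59) and 2.64 in the C-myc fl/fl mouse (1 and 10).

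Barcodes without a cell held 8 Max and 4 Mga transcripts among 51080. The 507 cells below the minimum held 446672 transcripts, with 41 of Myc, 4 of Mycn, 50 of Max, 11 of Mxd1, 4 of Mxd3, 28 of Mxd4, 10 of Mxi1, 6 of Mnt and 38 of Mga.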

How the results depend on the processing

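Of 1371 values recomputed under the alternatives, 1289 stayed within the exact counting interval of the main log2 ratio or within 1.5 times the count. A further 80 moved beyond these limits and 2 called ratios reversed. The intervals cover counting error only, so the spread between libraries did not enter these limits. Among the 1210 recomputed log2 ratios, called or not, 76 had the other sign. The numbers of members called in this section are given without the share of all genes called under the same alternative. They show how the calls depend on the processing and are not results about the members. The alternatives that subtract the median gene, weight cells equally or leave out Trdc, B cell marker or cycle cells were chosen after seeing the data. No paired analysis was possible because no comparison has a test to which a replicate block could be added; in the C-myc fl/fl mouse the populations of 1 library were set against each other within it by the rule for a call.

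With the median gene subtracted, the antagonist sum was -0.088 and -0.29 for the gain of CD122 by T-bet- cells in the TBGR and C-myc fl/fl mice and 0.39 between genotypes in CD122-T-bet- cells, and 1 member was called between genotypes in CD122+T-bet- cells. With every cell thinned to 2000 transcripts, the TBGR step into int cells gave -0.059 for Mxd3, -0.48 for the antagonist sum and 1 call, and the step to high cells -1.55 for Myc. Thinning also left 2 calls at the first C-myc fl/fl step, 1 within the C-myc Δ/ΔCd4 mouse and 0 between genotypes in either population, and equal weights gave 2 calls at the first C-myc fl/fl step. A minimum of 100 transcripts, which few members reach, left 0, 1 and 1 calls at the TBGR steps and 0 in the 3 comparisons with the C-myc Δ/ΔCd4 mouse. Cells from 1000 transcripts on gave 1 call at the first and the last C-myc fl/fl step and 1 between genotypes in CD122+T-bet- cells. Cells from 3000 on gave 1 at the last C-myc fl/fl step and 1 between genotypes in CD122-T-bet- cells, and totals without ribosomal protein genes gave 1 at the first C-myc fl/fl step.

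Without cycle cells, Myc was 3.06 at the first C-myc fl/fl step, 3.08 within the C-myc Δ/ΔCd4 mouse (1 transcript before and 15 after) and -1.76 between genotypes in CD122-T-bet- cells (1 against 6). The antagonist sum was 0.61 and -0.28 at the middle and the last C-myc fl/fl step and 1.34 between genotypes in CD122+T-bet- cells. Mxd3 within the C-myc Δ/ΔCd4 mouse reversed to 1.29 on 1 transcript. Calls were then 2, 0 and 1 at the TBGR steps, 2 at the first C-myc fl/fl step and 1 between genotypes in CD122-T-bet- cells. Without Trdc cells, Myc within the C-myc Δ/ΔCd4 mouse was 1.22, and calls were 2 at the first C-myc fl/fl step and 4 between genotypes in CD122+T-bet- cells.

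Leaving out each library in turn, the members called ranged from 1 to 3 at the first TBGR step, from 0 to 2 at the first and 0 to 1 at the last C-myc fl/fl step, and from 1 to 3 within the C-myc Δ/ΔCd4 mouse. Between genotypes they ranged from 1 to 2 in CD122-T-bet- and 1 to 5 in CD122+T-bet- cells. Myc ranged from -1.19 to 0.85 within the C-myc Δ/ΔCd4 mouse and from -3.15 to -1.11 between genotypes in CD122+T-bet- cells. A lower count after thinning, under the higher minimum or without a library can come from too few transcripts; other causes were not tested. Depth limits members with few transcripts, such as Mycn and Mycl in all groups and Mxd1, Mxi1 and Mxd4 in C-myc fl/fl cells.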
